A study of Mus musculus with 5 samples.

Results

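The DNA replication genes described here are 45 genes that copy the genome during S phase, given by symbol: 11 genes of origin licensing, 8 of origin firing, 16 of the replication fork, 3 of histone supply and chromatin assembly, and 7 E2F and cyclin E genes. They were found by matching symbols to Ensembl gene identifiers of the mouse GRCm38 build among the 55487 identifiers of the count table, and all 45 were present. Expression was measured by bulk RNA sequencing of common lymphoid progenitors (CLPs), sorted from mouse bone marrow as lineage-negative, CD127-positive and Flt3-positive cells. There were 3 libraries labelled SF1, from SclCre;JAK2-V617F mice, and 2 from wild-type (WT) mice. The labels also use VF for the SclCre;JAK2-V617F genotype, and the series' design text sets VF and SF1 equal. JAK2-V617F is an activated form of a cytokine receptor kinase found in myeloproliferative neoplasms, and the Scl regulatory sequence drives Cre recombinase in blood stem and progenitor cells, so that cells of several lineages can carry the allele. Both groups are labelled as 16 weeks after tamoxifen, so the agent itself is shared. The sources used here give neither the age of the mice nor whether each library holds 1 animal or several pooled, so the p-values cover only library-to-library spread, which may be technical. Counts per gene do not show the point mutation and therefore do not check the genotype labels.

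Replication is prepared before it begins. The origin recognition complex, Cdc6 and Cdt1 load the ring-shaped MCM helicase onto DNA (licensing), geminin binds Cdt1 and blocks a further round, and the kinases Cdc7-Dbf4 and cyclin E-Cdk2, with Cdc45 and the GINS complex, then turn the loaded helicase into an active fork. E2F transcription factors, held back by the retinoblastoma protein, switch on many of these genes at the entry into S phase, and the B cell precursors that arise from CLPs alternate rounds of division with differentiation.

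All 45 genes passed the filter on low counts, with between 214 counts (E2f3) and 32801 counts per gene and library, and they held between 0.94% and 1.12% of all counts of a library. In SF1 CLPs 9 of the 45 fell and none rose: Mcm4, Mcm7 and Cdt1 among the licensing genes, Pold1 and Pole at the fork, Chaf1a and Chaf1b in chromatin assembly, and Ccne2 and E2f3. The share that fell, 20%, stands beside 9.74% of the 14423 genes tested that were lower in SF1 at an adjusted p under 0.05, 6.77% that were higher, and 16.5% that passed in either direction. The median log2 fold change, SF1 over WT, was -0.13 for the 45 genes and 0.02 for all genes tested. The log2 fold change was negative for 30 members and positive for 15. At an unadjusted p under 0.05, 17 members were lower and 1, Gins4, was higher. The share of all genes tested at that threshold was not counted, so these counts have no background to be read against.

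The libraries had 8894288 to 20424296 counts, the deepest being WT replicate 1, and 3 counts in a library stood for 0.151 to 0.342 CPM, the unit of level used below, in which counts are divided by a TMM-scaled library total. The CLP identity of the libraries was checked with 13 markers, all of them detected in both groups, whose summed level was 12668 to 12940 CPM in SF1 and 11747 to 12231 CPM in WT. Of the 13, 4 were higher in SF1 (among them Il7r, Ly6d and Satb1), 3 were lower (Kit, Rag1 and Tcf3) and 6 did not pass, with log2 fold changes from -1.25 to 0.92. Dntt, which adds nucleotides at antigen receptor joins and did not pass, averaged 5135 ± 245 CPM over the SF1 libraries (SD, n = 3) and 5065 ± 113 CPM over the WT libraries (n = 2). Markers of other cells moved with the groups: SF1 libraries were higher in 13 of 14 neutrophil and monocyte genes, with sums of 2406, 3020 and 6087 CPM in SF1 replicates 1 to 3 and 1109 and 1420 CPM in WT, and 7 of 9 dendritic genes were higher, with sums of 1843 to 2332 CPM against 1065 to 1209 CPM. No gene of either list was at 0 in a whole group. Of 8 B cell genes, 6 were lower in SF1, with sums of 513 to 698 CPM against 957 to 1111 CPM. Of 12 erythroid genes 6 were lower, with a median log2 fold change of -1.73 over the 10 tested (from -7.54 to 0.39). Their sums, 361 to 425 CPM against 379 to 479 CPM, overlapped, and Hba-a2 was at 0 in SF1. Of 10 macrophage genes 4 were lower and 1 higher, with a median of -1.60 over the 8 tested (from -7.11 to 1.24). Their sums, 29.5 to 44.5 CPM against 30.0 to 42.6 CPM, overlapped, with Cd5l, Marco and Mertk at 0 in SF1. Among 8 T cell genes none passed (259 to 289 CPM against 208 to 253 CPM, with Cd8b1 at 0 in both groups, Cd3e in SF1 and Cd3g in WT). Of 8 genes of natural killer and innate lymphoid cells, 2 were higher (210 to 232 CPM against 188 to 194 CPM, with Gzmb at 0 in both groups, Ncr1 in SF1, and Tbx21 and Eomes in WT), and among 7 megakaryocyte genes 1 was higher (10.2 to 23.3 CPM against 9.91 to 11.7 CPM, Gp1bb at 0 in both groups). The part of these marker changes in the replication genes' values was not tested. In bulk libraries, fewer cells of a type and less RNA per cell cannot be told apart, so a lower level of a replication gene can be either.

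Because E2F factors are the textbook regulators of these genes, their promoters were searched for the core E2F letters TTCCCGC and TTGGCGC on both strands (GCGGGAA and GCGCCAA on the other). RefSeq windows of the GRCm38.p6 build, from 250 bases before to 50 bases after the start of a transcript, were matched by symbol for 36 members. Mcm4, Gmnn, Gins1, Gins2, Gins4, Prim2, Pole, Rfc2 and Ccne2 had no window. The letters were found in 22 of the 36 (61.1%), against 7.79% of 27025 genes with a window and 14.0% of 10128 tested genes with a window. By role, they were found in 6 of 9 licensing genes, 2 of 5 firing genes, 8 of 13 fork genes, 2 of 3 histone supply genes and 4 of 6 E2F and cyclin E genes. All 6 of the members that fell and have a window held a match (Mcm7, Cdt1, Pold1, Chaf1a, Chaf1b and E2f3), and so did 16 of the 30 members that did not pass (53.3%). Cdt1 and Pold1 had no match wholly before the start, and the Mcm7 stretch before the start overlaps the gene's own exons. Some members that did not pass, such as Mcm3 and Rfc1, also had matches but none wholly before the start. Over the whole table the letters were in 15.2% of 1115 genes lower in SF1 that have a window. A match is a run of letters and not a shown binding site.

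Stretches around matches that lie before the start and outside the gene's own annotated exons are shown for genes that fell and for genes that did not pass, so that the same letters can be read in both kinds of promoter. The stretches of Cdc6 and E2f8, and a further one of E2f7 at chr10:110745327-110745373, also meet this rule and are not printed. They belong to genes that did not pass. Each printed stretch runs 5′ to 3′ on the strand of its gene, with the matched letters in capitals. The first 3 belong to genes that fell. The E2f3 stretch is chr13:29986064-29986094 on the minus strand and ends 1 base before the start. The Chaf1a stretch is chr17:56040349-56040395 and the Chaf1b stretch chr16:93883654-93883700, both on the plus strand.
E2f3: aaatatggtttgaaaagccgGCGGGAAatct
Chaf1a: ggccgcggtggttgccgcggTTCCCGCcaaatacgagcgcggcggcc
Chaf1b: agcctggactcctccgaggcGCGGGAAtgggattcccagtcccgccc
The others belong to genes that did not pass: Mcm5 at chr8:75109325-75109386 (plus strand, 2 matches), Mcm6 at chr1:128359788-128359834 and chr1:128359725-128359771 (minus strand, 1 match each), Pola1 at chrX:93632250-93632344 (minus strand, 3 matches) and E2f7 at chr10:110745196-110745267 (plus strand, 2 matches).
Mcm5: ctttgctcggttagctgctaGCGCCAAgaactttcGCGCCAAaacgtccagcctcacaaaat
Mcm6 distal: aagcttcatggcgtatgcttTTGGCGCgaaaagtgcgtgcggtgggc
Mcm6 proximal: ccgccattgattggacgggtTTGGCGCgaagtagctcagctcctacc
Pola1: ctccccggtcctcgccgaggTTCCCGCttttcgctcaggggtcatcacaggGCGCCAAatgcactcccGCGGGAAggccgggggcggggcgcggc
E2f7: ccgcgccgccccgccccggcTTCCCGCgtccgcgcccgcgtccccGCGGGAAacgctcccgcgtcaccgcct

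Among the 11 licensing genes, 3 fell (27.3%, beside 9.74% over all genes tested), none rose and 8 did not pass. Their median log2 fold change was -0.22 (from -0.82 to 0.15). Cdt1 (chr8:122568015-122573554), the loader that brings the MCM ring to origins, was at 101, 76.2 and 81.7 CPM in SF1 replicates 1 to 3 and at 150 and 156 CPM in WT replicates 1 and 2. Every SF1 library lay below both WT libraries, and the means were 86.5 ± 13.3 CPM (SD, n = 3) and 153 ± 3.72 CPM (n = 2). Cdt1 fell 1.77-fold (log2 fold change -0.82, SE 0.12, adjusted p = 0.00284). Its inhibitor geminin (Gmnn) did not pass: it stood at 96.9, 110 and 95.03 CPM in SF1 and at 96.2 and 95.5 CPM in WT, with a log2 fold change of 0.07 and a 95% interval of -0.14 to 0.28. Per kb of exon, the ratio of Cdt1 to Gmnn was 0.489, 0.323 and 0.401 in the SF1 libraries and 0.729 and 0.760 in the WT libraries. The ratio of the loader to its inhibitor, which is not corrected for GC content, was thus lower in every SF1 library than in either WT library. Cdt1 has 57.8% GC and Gmnn 49.8%. After correction for GC content and exon length, Cdt1 stood at -0.69 on the log2 scale (adjusted p = 0.00498). Gmnn then stood at -0.13 (adjusted p = 0.393), so the 2 genes lay closer together than before it.

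The 6 subunits of the MCM helicase were all lower on average in SF1, by small amounts, and 2 of them passed. Mcm4 (chr16:15623897-15637400) was at 460, 481 and 414 CPM in SF1 and at 592 and 548 CPM in WT, and fell by 0.34 ± 0.08 (SE) on the log2 scale (adjusted p = 0.0280). Mcm7 (chr5:138164583-138172422) was at 542, 543 and 501 CPM in SF1 and at 650 and 624 CPM in WT, and fell by 0.27 ± 0.07 (SE) on the log2 scale (adjusted p = 0.0372). For both genes the groups did not overlap. Leaving out SF1 replicate 2 (adjusted p = 0.0505) or 3 (0.0853), or WT replicate 1 (0.170), ended the Mcm4 call. For Mcm7 the call ended when SF1 replicate 2 (0.0863) or 3 (0.119), or WT replicate 1 (0.183) or 2 (0.0606), was left out.

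The other MCM subunits did not pass. Mcm6 was at 1457, 1414 and 1242 CPM in SF1 and at 1650 and 1551 CPM in WT (log2 fold change -0.22, adjusted p = 0.0962). Mcm3 was at 774, 719 and 637 CPM in SF1 and at 900 and 824 CPM in WT (log2 fold change -0.28, adjusted p = 0.0686). Mcm2 was at 618, 639 and 575 CPM in SF1 and at 765 and 700 CPM in WT (log2 fold change -0.26, adjusted p = 0.0502). In these 3 genes the SF1 libraries were all below the WT libraries. Mcm5 was at 717, 651 and 588 CPM in SF1 and at 757 and 715 CPM in WT, so the groups overlapped (log2 fold change -0.17, adjusted p = 0.225). Summed over the 6 subunits, the level was 4569, 4447 and 3958 CPM in SF1 and 5315 and 4961 CPM in WT. SF1 replicate 3 had the lowest MCM sum and also the highest sum of neutrophil and monocyte genes.

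Although the 6 subunits form a ring in equal numbers, their RNA levels per kb of exon were not equal. Per kb of exon, the WT means ran from 105 CPM for Mcm2 to 343 CPM for Mcm6, and the SF1 means from 87.8 CPM for Mcm2 to 294 CPM for Mcm6. The lowest and the highest subunit were the same in both groups. Their order depends on exon length, which merges all annotated exons of a gene: 6956 bases for Mcm2 and 3589 for Mcm4. Before division by length, Mcm4 was lowest in WT, at 570 CPM on average against 732 CPM for Mcm2. The ratio of Mcm6 to Mcm4 was 2.44, 2.26 and 2.31 in SF1 and 2.14 and 2.18 in WT, so the shift in this ratio was small beside the difference between the genes.

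The remaining licensing genes did not pass. Cdc6, the loading ATPase that works with Cdt1, was at 171, 143 and 126 CPM in SF1 and at 169 and 155 CPM in WT, and the groups overlapped (log2 fold change -0.14, adjusted p = 0.460). The origin recognition genes Orc1 (log2 fold change -0.19, adjusted p = 0.462) and Orc6 (0.15, adjusted p = 0.274) differed in sign. The Orc1 level was low, with SF1 libraries at 29.3 ± 1.19 CPM (n = 3) and WT libraries at 33.0 ± 8.64 CPM (n = 2). Of the 2 genes, only Orc6 had groups that did not overlap, with SF1 libraries at 92.4 to 102 CPM and WT libraries at 84.2 and 88.9 CPM.

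**Figure D1:**
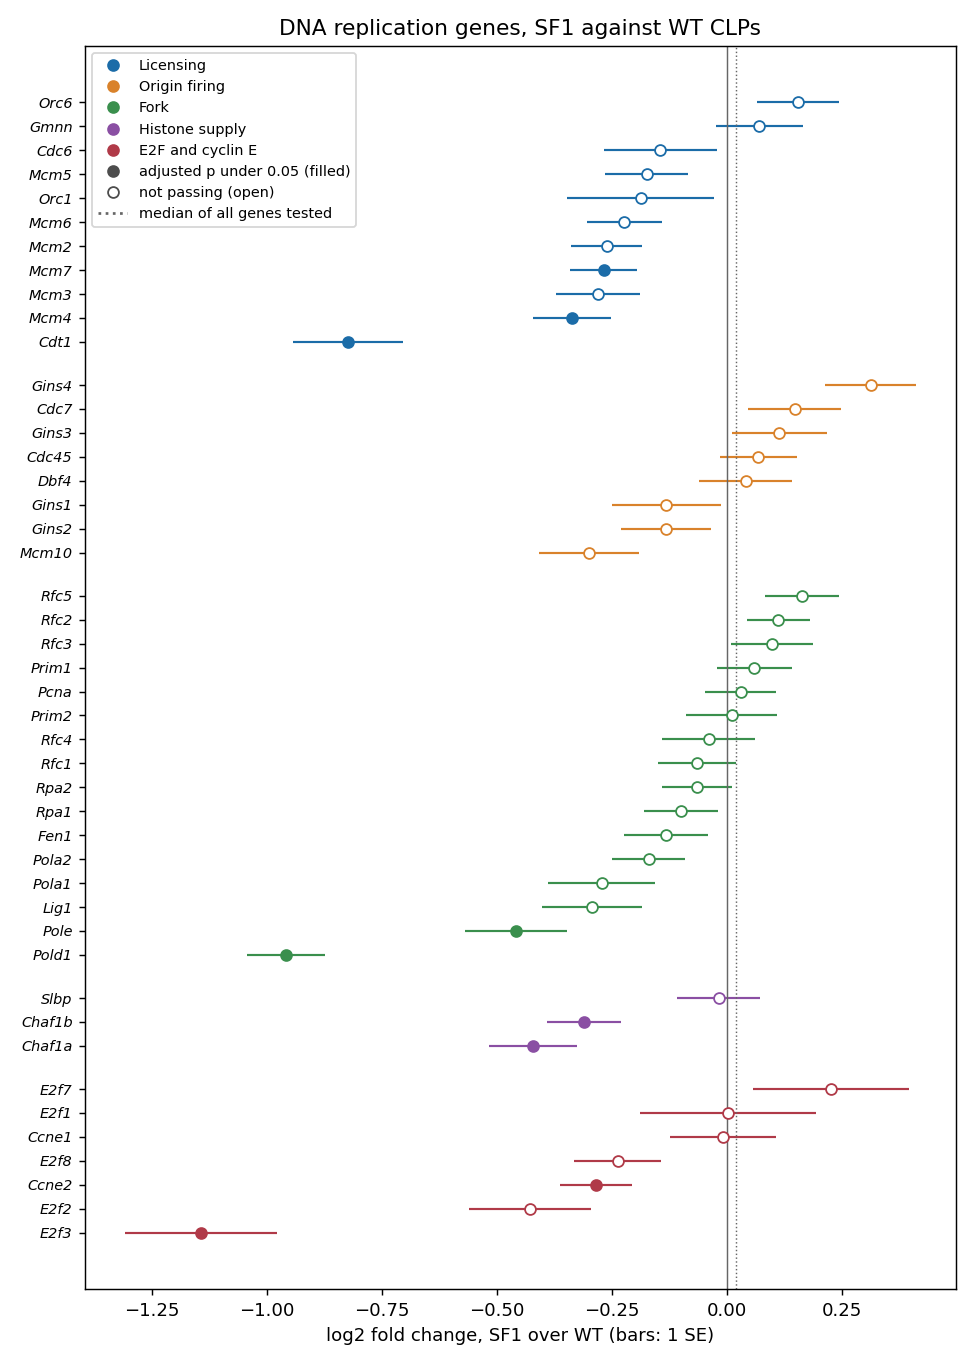
Log2 fold change, SF1 over WT, of the 45 DNA replication genes with bars of 1 SE, grouped and coloured by role and ordered by value within a role. Filled points passed an adjusted p of 0.05 (edgeR), open points did not, and the dotted line is the median of all genes tested (0.02). The 9 filled points all lie to the left of 0, with E2f3, Pold1 and Cdt1 farthest from it, and the 8 origin firing genes are all open.

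None of the 8 origin firing genes passed, and their median log2 fold change was 0.05 (from -0.30 to 0.31). Cdc45, the helicase cofactor, was at 122, 117 and 121 CPM in SF1 and at 109 and 120 CPM in WT, with a log2 fold change of 0.07 and a 95% interval of -0.12 to 0.26. The firing kinase Cdc7 (0.15, adjusted p = 0.356) and its activator Dbf4 (0.04, adjusted p = 0.826) were slightly higher on average in SF1, within the spread of the libraries. Mcm10, which helps to activate the helicase, had the lowest log2 fold change of the 8: it was at 104, 102 and 84.6 CPM in SF1 and at 125 and 113 CPM in WT (-0.30, adjusted p = 0.0936). Summed over the 8 genes, the level was 682 to 723 CPM in SF1 and 690 to 707 CPM in WT, so the groups overlapped.

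None of the 4 GINS subunits, which join the active helicase, passed, and their log2 fold changes differed in sign. Gins4 was at 111, 95.7 and 95.03 CPM in SF1 and at 82.4 and 79.3 CPM in WT, with a log2 fold change of 0.31 (95% interval 0.09 to 0.54, adjusted p = 0.0619). It was higher in every SF1 library and did not pass, and after correction for GC content and exon length its log2 fold change was 0.13 (adjusted p = 0.438). It passed only where genes had to reach 5 CPM in 2 libraries (log2 fold change 0.33, adjusted p = 0.0424). Gins3 was higher on average in SF1 (0.11), while Gins1 and Gins2 were both at -0.13, and none of the 3 passed. The Gins2 value is uncertain, since 67.3% of its exon bases lie opposite exons of Gse1, which fell (log2 fold change -0.61, adjusted p = 0.0131), and the libraries do not mark the strand.

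Of the 16 fork genes, 2 fell (12.5%, near the 9.74% over all genes tested), none rose and 14 did not pass, with a median log2 fold change of -0.07 (from -0.96 to 0.16). The 2 that fell are the catalytic subunits of the polymerases that copy the lagging and the leading strand. Pold1 (chr7:44532746-44548849), of DNA polymerase delta, was at 216, 200 and 221 CPM in SF1 and at 438 and 387 CPM in WT. The groups were far apart, at 212 ± 10.6 CPM (SD, n = 3) and 413 ± 36.1 CPM (n = 2), and Pold1 fell 1.94-fold (log2 fold change -0.96, SE 0.08, adjusted p = 0.000381), the smallest p among the members. Pole (chr5:110286306-110337474), of DNA polymerase epsilon, was at 125, 139 and 142 CPM in SF1 and at 208 and 164 CPM in WT, and fell by 0.46 ± 0.11 (SE) on the log2 scale (adjusted p = 0.0246). Its groups did not overlap, though the WT libraries differed from each other by more than WT replicate 2 differed from SF1 replicate 3. Pole was no longer past the threshold with the correction for GC content and exon length (adjusted p = 0.0590), nor without SF1 replicate 1 (0.0586), 2 (0.0699) or 3 (0.0554) or WT replicate 1 (0.205).

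The partners of these catalytic subunits were read from a further list of replication genes. Pold2, the accessory subunit that binds Pold1, fell too, from 156 and 171 CPM in WT to 88.7, 71.9 and 66.0 CPM in SF1 (log2 fold change -1.11, SE 0.12, adjusted p = 0.000944). The other delta subunits, named here after their values were seen, did not pass: Pold3 was at -0.07 on the log2 scale (adjusted p = 0.620) and Pold4 at 0.08 (adjusted p = 0.797). Per kb of exon, the ratio of Pold1 to Pold3 was 1.12, 1.13 and 1.16 in SF1 and 2.24 and 1.99 in WT. Pold1 and Pold2 were at 84.9 and 86.2 CPM per kb in WT and at 43.7 and 39.8 CPM per kb in SF1. In SF1 they came close to Pold3 at 38.4 CPM per kb, a nearness that depends on the annotated exon lengths. The epsilon partners Pole2 (log2 fold change 0.14), Pole3 (-0.07) and Pole4 (0.03), also named after their values were seen, did not pass. In both polymerases some subunits passed and others did not, and the difference between subunits was not tested.

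The remaining fork genes gave small differences. Pcna, the sliding clamp that holds the polymerases on DNA, was at 214, 223 and 205 CPM in SF1 and at 210 and 209 CPM in WT, with a log2 fold change of 0.03 and a 95% interval of -0.14 to 0.20. The ratio of Pold1 to Pcna per kb of exon, not corrected for GC content, was 0.499, 0.443 and 0.531 in SF1 and 1.03 and 0.915 in WT. Pold1 has 61.0% GC and Pcna 45.3%. After correction for GC content and exon length, Pold1 stood at -0.65 on the log2 scale (adjusted p = 0.000694). Pcna then stood at -0.15 (adjusted p = 0.193), so the 2 genes lay closer together than before it. The clamp loader RFC had 5 subunits within -0.07 to 0.16 in log2 fold change, none of which passed. Rfc2 was at 510, 503 and 511 CPM in SF1 and at 462 and 478 CPM in WT (log2 fold change 0.11, adjusted p = 0.301). The Rfc2 and Rfc5 libraries did not overlap between the groups, both higher in SF1. Of the Rfc2 exon bases, 15.1% lie opposite exons of Lat2, which rose (0.39, adjusted p = 0.0199). Of the Rfc5 exon bases, 10.7% lie opposite exons of Wsb2, which rose (0.63, adjusted p = 0.0480). Of the Rfc4 exon bases, 12.7% lie opposite exons of Eif4a2, which did not pass (0.25, adjusted p = 0.0641).

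The primase-polymerase alpha complex starts each new strand, and none of its 4 genes passed: their log2 fold changes were -0.27 for Pola1 (adjusted p = 0.146), -0.17 for Pola2 (adjusted p = 0.182), 0.06 for Prim1 and 0.01 for Prim2. For Pola2 every SF1 library was below the WT libraries. The single-strand binding genes Rpa1 (-0.10) and Rpa2 (-0.07) did not pass. Fen1, the nuclease that trims Okazaki fragments, was at 371, 349 and 310 CPM in SF1 and at 363 and 390 CPM in WT, and the groups overlapped (log2 fold change -0.13, adjusted p = 0.353). Of its exon bases, 78.8% lie opposite exons of Gm10143, so reads there cannot be told apart from those of that gene. Lig1, the ligase that joins the fragments, was at 254, 202 and 202 CPM in SF1 and at 273 and 265 CPM in WT, with no overlap and a log2 fold change of -0.29 that did not pass (adjusted p = 0.0987).

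**Figure D2:**
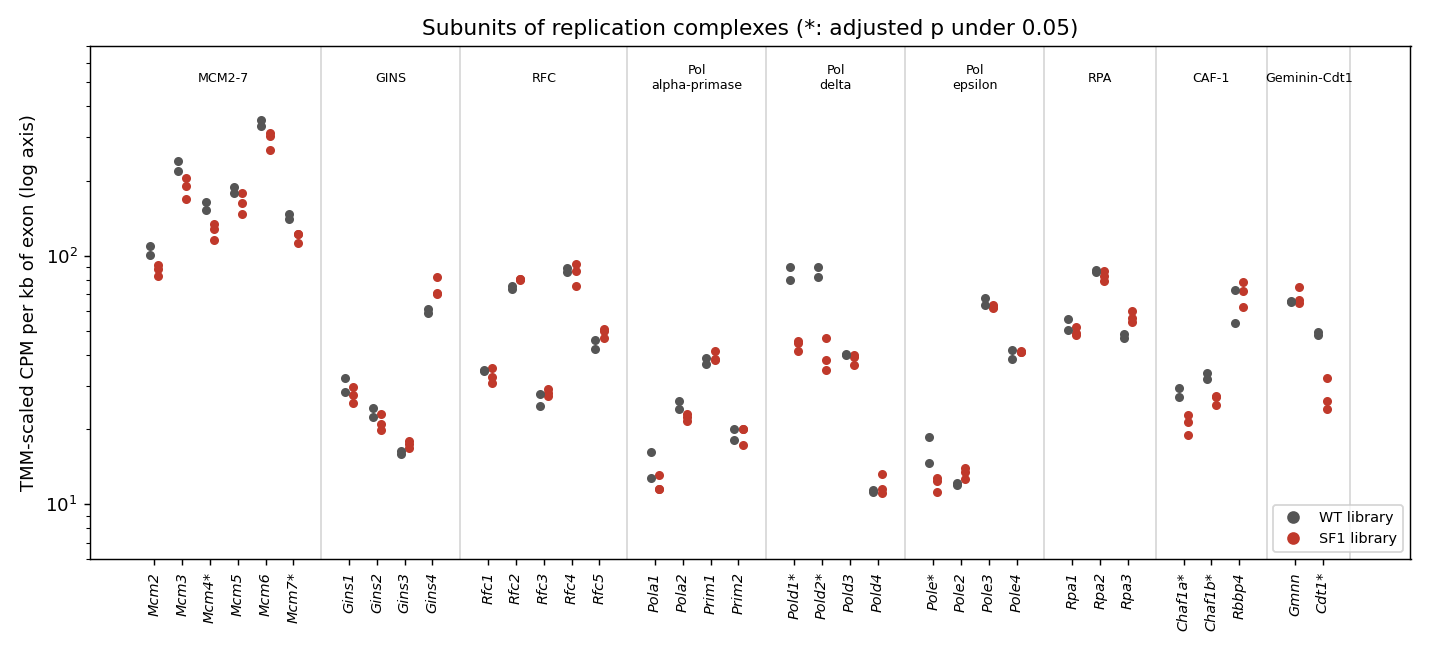
Level of each subunit of 9 replication complexes in each library, in TMM-scaled CPM per kb of exon on a log axis, with WT libraries in grey and SF1 libraries in red, and an asterisk on genes with an adjusted p under 0.05. In polymerase delta the SF1 points of Pold1 and Pold2 lie well below the WT points while those of Pold3 and Pold4 lie close to them, and in the MCM ring all subunits sit slightly lower in SF1.

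In histone supply and chromatin assembly, 2 of 3 genes fell (66.7% of a very small list, beside 9.74% over all genes tested). Chaf1a and Chaf1b encode the large and the middle subunit of CAF-1, the chaperone that places new histones behind the fork. Chaf1a (chr17:56040439-56072289) was at 202, 191 and 168 CPM in SF1 and at 261 and 239 CPM in WT, and fell by 0.42 ± 0.10 (SE) on the log2 scale (adjusted p = 0.0187). Chaf1b (chr16:93883901-93906115) was at 126, 127 and 118 CPM in SF1 and at 158 and 149 CPM in WT, and fell by 0.31 ± 0.08 (SE) on the log2 scale (adjusted p = 0.0324). Both subunits were lower in 3 of 3 SF1 libraries than in either WT library. Of their promoter matches, those before the start are printed above. Rbbp4, the histone-binding subunit shared with other complexes and named after its values were seen, did not pass (0.16, adjusted p = 0.466), and neither did Slbp, which binds the stem-loop of histone messages (-0.02, adjusted p = 0.915).

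The CAF-1 calls depended on single libraries. Chaf1a was not past the threshold when SF1 replicate 2 (adjusted p = 0.0600) or 3 (0.0583), or WT replicate 1 (0.128), was left out, nor after correction for GC content and length (0.0937). Chaf1b was not past it when SF1 replicate 2 (0.0680) or 3 (0.107), or WT replicate 1 (0.186) or 2 (0.0565), was left out, nor with all libraries thinned to 8894288 counts (0.0529). Of the Chaf1a exon bases, 52.5% lie opposite exons of Ubxn6, which also fell (-0.33, adjusted p = 0.0323), so the reads of these 2 genes cannot be told apart there.

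Among the 7 E2F and cyclin E genes, 2 fell (28.6%, beside 9.74% over all genes tested) and none rose. Their median log2 fold change was -0.24 (from -1.14 to 0.23). E2f3 (chr13:29906575-29986063), one of the activating E2F factors, was at 24.8, 30.4 and 19.7 CPM in SF1 and at 53.6 and 56.9 CPM in WT. The group means were 24.9 ± 5.36 CPM (SD, n = 3) and 55.3 ± 2.37 CPM (n = 2), and E2f3 fell 2.21-fold, the largest change of the 45 genes (log2 fold change -1.14, 95% interval -1.52 to -0.77, adjusted p = 0.00278). The other activating factors did not pass. E2f1 was at 67.3, 74.3 and 74.4 CPM in SF1 and at 89.97 and 52.4 CPM in WT, so that the WT libraries lay on either side of the SF1 libraries and the 95% interval was wide, from -0.43 to 0.43. E2f2 was at 44.7, 33.9 and 39.3 CPM in SF1 and at 54.9 and 50.6 CPM in WT, with no overlap (log2 fold change -0.43, adjusted p = 0.0566).

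The repressive factors E2f7 and E2f8, which damp the same targets later in S phase, had log2 fold changes of 0.23 (adjusted p = 0.401) and -0.24 (adjusted p = 0.122). E2f8 was lower in every SF1 library, at 60.8 to 67.4 CPM against 74.7 and 76.1 CPM, and E2f7 overlapped. The cyclins that pair with Cdk2 at the start of S phase gave different results. Ccne2 (chr4:11191351-11204779) was at 100, 100 and 98.0 CPM in SF1 and at 121 and 122 CPM in WT, a small difference with little spread (log2 fold change -0.28, SE 0.08, adjusted p = 0.0394). Ccne1 was at 40.6, 38.8 and 34.7 CPM in SF1 and at 38.1 and 38.5 CPM in WT (-0.01, adjusted p = 0.967). Ccne2 was not past the threshold when any 1 of the 5 libraries was left out (adjusted p from 0.0666 to 0.157), and whether the 2 cyclins differ in their response was not tested. Of the Ccne2 exon bases, 17.4% lie opposite exons of Ints8 (log2 fold change -0.27, adjusted p = 0.0919), and reads there cannot be told apart.

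**Figure D3:**
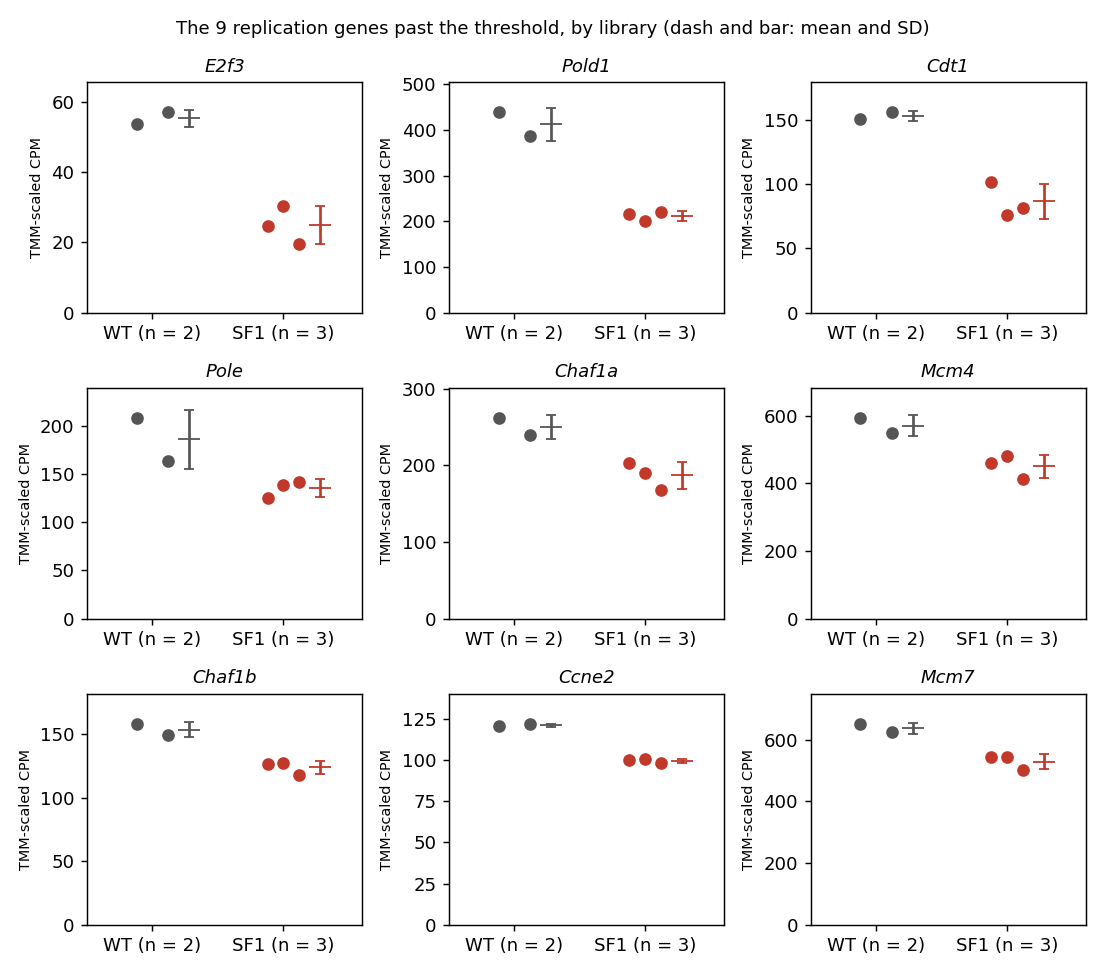
TMM-scaled CPM of the 9 replication genes past the threshold in each library, with WT (n = 2) in grey and SF1 (n = 3) in red. The dash and bar beside the points give mean and SD, and every axis starts at 0. In each panel all SF1 points lie below both WT points, with the widest gaps for E2f3 (19.7 to 30.4 against 53.6 and 56.9 CPM), Pold1 and Cdt1.

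Cdt1, Pold1 and E2f3 were past the threshold in each of the 14 alternative analyses, with largest adjusted p of 0.0169, 0.00536 and 0.0118, and for the other 6 genes at least 1 leave-one-out analysis ended the call. All 9 kept a negative log2 fold change in each of the 14. With SF1 replicate 2 or 3, or WT replicate 1, left out in turn, 3 members remained past the threshold each time, namely those same genes.

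Over all 45 genes, 17 had every SF1 library below every WT library, 5 had every SF1 library above, and 23 overlapped. Of all genes tested, 24.2% were separated with SF1 lower and 24.8% with SF1 higher. The 8 members that were separated with SF1 lower and did not pass were Mcm2, Mcm3, Mcm6, Mcm10, Pola2, Lig1, E2f2 and E2f8, and the 5 separated with SF1 higher were Orc6, Gins3, Gins4, Rfc2 and Rfc5. Set against the WT mean, the median log2 ratio of the 45 genes was -0.03, -0.13 and -0.22 in SF1 replicates 1 to 3 and 0.03 and -0.03 in WT. SF1 replicate 1 was thus at the level of a WT library in this median, and SF1 replicate 3 farthest from it. Summed over the 45 genes, the level was 10321, 9965 and 9273 CPM in SF1 and 11520 and 10952 CPM in WT, with no overlap.

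Genes with a high share of G and C bases were lower in SF1 across the table, which bears on several members. The tested genes were cut into 5 equal bins by the GC content of their longest transcript. The share lower in SF1 was 4.13%, 5.69%, 7.67%, 12.2% and 19.1% from the lowest GC to the highest. The members in those bins numbered 6, 11, 13, 11 and 4, of which 1, 1, 3, 2 and 2 fell. Pold1 had 61.0% GC, Cdt1 57.8%, E2f2 56.6% and E2f1 58.3%, while Ccne2 had 36.3% and Mcm4 45.5%. With a correction for GC content and exon length, Pold1 stood at -0.65 (adjusted p = 0.000694), Cdt1 at -0.69 (0.00498) and E2f3 at -1.07 (0.00367). Mcm4 stood at -0.42 (0.00881), Ccne2 at -0.46 (0.00764) and Chaf1b at -0.27 (0.0422), so that 6 of the 9 remained past the threshold. Mcm7 (-0.16, adjusted p = 0.155), Chaf1a (-0.24, 0.0937) and Pole (-0.33, 0.0590) did not.

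**Figure D4:**
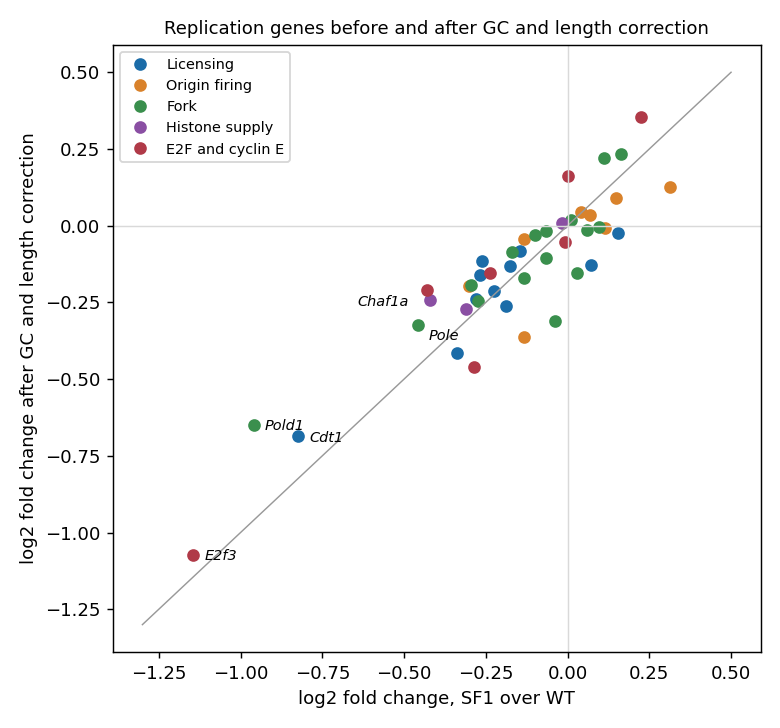
Log2 fold change, SF1 over WT, of the 45 replication genes before (x axis) and after (y axis) correction for GC content and exon length. GC content is that of the longest transcript. Points are coloured by role, and the line of equal values is in grey. E2f3 lies near the line, while Pold1 (from -0.96 to -0.65), Chaf1a (from -0.42 to -0.24) and Pole (from -0.46 to -0.33) lie above it, closer to 0.

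Other genes of the pathway were taken from 3 lists with 67 genes, all tested. Of these 13 fell (19.4%, beside 9.74% over all genes tested), 2 rose and 52 did not pass, with a median log2 fold change of -0.09. The 42 further replication genes had 10 lower (23.8%) and none higher (median -0.12). The 4 with the smallest p were Pold2, given above, and Uhrf1, Chtf18 and Timeless. Uhrf1, which reads half-methylated DNA behind the fork, was at 323, 288 and 269 CPM in SF1 and at 597 and 586 CPM in WT, a 2.02-fold fall (log2 fold change -1.01, SE 0.09, adjusted p = 0.000371). Chtf18, of an alternative clamp loader, was at 50.2, 44.2 and 40.8 CPM in SF1 and at 84.3 and 80.7 CPM in WT (-0.87, SE 0.11, adjusted p = 0.00166). Timeless, a fork protection factor, was at 131, 121 and 123 CPM in SF1 and at 173 and 168 CPM in WT (-0.45, SE 0.08, adjusted p = 0.00665). In these 3 genes the groups did not overlap, and Timeless was not past the threshold after the GC and length correction (adjusted p = 0.0581).

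Among the 14 E2F partner and pocket protein genes, 2 fell (14.3%, near the 9.74% over all genes tested) and 1 rose (median -0.12). Mybl2, a cell cycle transcription factor and E2F target, was at 48.2, 39.4 and 38.4 CPM in SF1 and at 85.3 and 80.1 CPM in WT (-0.98, SE 0.12, adjusted p = 0.00140). Tfdp2, a dimer partner of E2F factors, fell from 160 and 127 CPM in WT to 115, 103 and 105 CPM in SF1 (-0.42, SE 0.11, adjusted p = 0.0323). The gene that rose was Rb1, the retinoblastoma protein that binds activating E2F factors, at 50.8, 67.1 and 64.1 CPM in SF1 and 35.9 and 32.1 CPM in WT (0.83, SE 0.14, adjusted p = 0.00560). Beside E2f3, Rb1 therefore differed in the opposite direction in the same libraries.

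Among the 11 genes of nucleotide supply, 1 fell and 1 rose (median -0.06), a share of 9.09% in each direction that is near those over all genes tested (9.74% and 6.77%). Samhd1, which breaks down deoxynucleotides, rose from 33.2 and 31.8 CPM in WT to 47.3, 53.8 and 55.1 CPM in SF1 (0.68, SE 0.12, adjusted p = 0.00558). Dck, a salvage kinase that makes them, fell from 307 and 292 CPM in WT to 249, 217 and 210 CPM in SF1 (-0.41, SE 0.09, adjusted p = 0.0169). The ribonucleotide reductase genes Rrm1 (-0.19) and Rrm2 (-0.07), named after their values were seen, did not pass. Samhd1 is also expressed in myeloid cells, and the rise of the neutrophil and monocyte markers in the SF1 libraries stands beside its value, with their part in it not tested.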

How the data were processed

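The authors deposited 1 table of raw read counts per gene for the 5 libraries. The submitters' processing notes name FastQC, the aligner HISAT2 (2.2.1), the read counter featureCounts (2.0.1) and the GRCm38 build. The annotation release was not given in the sources used here, nor was the strand setting. Per the labels' protocols, cDNA was made with SMART-Seq v2 or v4 and libraries with Nextera XT. These do not mark the strand and carry no molecular identifiers, so PCR copies count as reads. The version used for each library is not given. A difference of version between the groups, if there was one, could not be told apart from genotype. Of 55487 identifiers, 55227 matched GENCODE M21 (GRCm38), which gave symbols, coordinates, exon lengths and GC content. Exon length merges all annotated exons of a gene, and GC content is that of its longest transcript.

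Differences were tested on the counts with edgeR 4.0.16 (R 4.3.3): TMM scaling, filterByExpr (minimum count 10), quasi-likelihood F test, no covariate, and Benjamini-Hochberg adjustment over all 14423 genes tested, threshold 0.05. Adjusted p-values come from it except where another tool is given. The biological coefficient of variation was 0.122. Levels are TMM-scaled CPM, and levels of different genes are compared per kb of exon. Intervals are 95% t intervals on edgeR's degrees of freedom. Fits were tested on simulated data.

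The members and lists were chosen with earlier results of these data known. Every member is accounted for, and those past the threshold and the 6 others with the highest mean CPM have their value in each library. Of the other lists, up to 4 genes per direction with the smallest p are named.

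The 14 alternatives were DESeq2 size factors in edgeR, DESeq2 1.42.0, limma 3.58.1 voom with sample weights, no filter, at least 5 CPM in 2 libraries, thinning to 8894288 counts, a replicate block, GC and length correction (mgcv 1.9.3) without and with the block, and leaving out each of the 5 libraries.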

Additional observations from a re-analysis of the deposited data

How the results depend on the processing

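Of the 45 genes, 9 were lower in SF1 in the fit as designed, 16 with no filter on low counts, 4 with a replicate block, 5 with the GC and length correction together with the replicate block, and 3 to 10 when 1 library was left out. None was higher except 1, Gins4, where genes had to reach 5 CPM in 2 libraries. No member called in the fit as designed changed sign. With the replicate block, 945 of 14423 genes tested were lower, beside 4 of the 45 members. With no filter, 1961 of 26875 were lower, beside 16 members. Without SF1 replicate 2, 770 of 14040 were lower, and without SF1 replicate 3, 827 of 14083, beside 3 members each. The members' excess over all genes was thus smaller with the block or without either of these replicates than in the fit as designed. With no filter it was larger, but that background adds genes with few counts, while no member had under 214 counts in a library. The excess with no filter is therefore not comparable with that of the fit as designed. Over all genes, 977 were higher and 1405 lower. With the replicate block 574 were higher, with the GC and length correction and the block 856 were lower, and leaving out 1 library gave 464 to 905 higher and 522 to 1265 lower. Of the 67 other pathway genes, 13 were lower, 8 with the GC and length correction and the block, and 5 to 13 with 1 library left out. Of the 30 mitotic genes, 7 were lower, 4 with that correction and the block, and 3 to 5 with 1 library left out. The cause of these shifts was not tested. The numbers shared by the groups do not come from a stated pairing. Deviations of same-numbered libraries from their group means correlated at 0.036 and 0.065. With 2 WT libraries the WT deviations mirror each other, so these values cannot decide whether libraries are paired. The block leaves SF1 replicate 3 without a partner. With the block Mcm4 (adjusted p = 0.0856), Mcm7 (0.122), Chaf1a (0.0503), Chaf1b (0.133) and Ccne2 (0.145) were not past the threshold. Members that passed only in alternatives were Mcm2 (6 of the 14, among them DESeq2 at 0.0204 and voom at 0.0371), Mcm3 and E2f2 (4 each, among them DESeq2, voom and no filter), Pola1 and Lig1 (2 each), and Mcm6, Mcm10 and Gins4 (1 each). The WT group has 2 libraries, so leaving 1 out assumes that the other varies like the SF1 libraries.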

Other observations

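Genes of mitosis, which follows replication in the cycle, were read from a separate list of 30 genes. Of these 7 fell in SF1, none rose and 23 did not pass, with a median log2 fold change of -0.15, and the share that fell (23.3%) stands beside 9.74% over all genes tested. Espl1, the protease that releases sister chromatids, was at 72.9, 78.7 and 76.0 CPM in SF1 and at 141 and 117 CPM in WT (a log2 change of -0.77, SE 0.10, adjusted p = 0.00185). Bub1b, of the spindle checkpoint, was at 260, 262 and 243 CPM in SF1 and at 334 and 326 CPM in WT (-0.37, SE 0.07, adjusted p = 0.0112). Ect2, which directs cytokinesis, was at 154, 150 and 155 CPM in SF1 and at 196 and 203 CPM in WT (-0.38, SE 0.08, adjusted p = 0.0101). Incenp, of the chromosomal passenger complex, was at 194, 152 and 170 CPM in SF1 and at 230 and 235 CPM in WT (-0.43, SE 0.10, adjusted p = 0.0225). In each of these 4 genes the groups did not overlap. The proliferation marker Mki67, named after its values were seen, was at 269, 269 and 261 CPM in SF1 and at 266 and 332 CPM in WT, and did not pass (-0.16, adjusted p = 0.291).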
